A study of Homo sapiens with 6 samples.

Results

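The genes described here encode the nuclear part of the mitochondrial respiratory chain and ATP synthase. They were chosen by symbol from the platform annotation, as genes named NDUFA, NDUFB, NDUFC, NDUFS or NDUFV (without the NDUFAF assembly factors), SDHA to SDHD, UQCR, COX4I, COX5, COX6, COX7, COX8 or ATP5. Probe sets with 1 gene symbol represented 82 such genes of 19775 in all, and each gene was read from its probe set of highest mean signal. Of the 82 genes, 36 belonged to complex I, 3 to complex II, 6 to complex III, 18 to complex IV and 19 to complex V. The symbol rule also took in 5 genes that are not protein-coding, which left 77 protein-coding genes. The 5 were the long non-coding RNAs NDUFB2-AS1, NDUFV1-DT and NDUFV2-AS1 and the pseudogenes COX6A1P1 and ATP5MC2P1. Not all of the 77 encode subunits, ATP5IF1 for example encoding an inhibitor of complex V. A filter on low mean signal kept 77 of the 82 genes, of which 73 were protein-coding. SDHB, UQCRFS1, NDUFA4L2 and the subunits encoded in mitochondrial DNA were not analysed here.

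The series silenced ZFX, a zinc finger transcription factor encoded on the X chromosome, in the human leukemia lines Jurkat (T cell acute lymphoblastic leukemia) and K562 (chronic myeloid leukemia with erythroid features). Each line was represented by 1 control array and 2 silenced arrays, 1 with the lentiviral short hairpin RNA labelled 381 and 1 with the hairpin labelled 1012, and fluorescent cells were sorted after infection. Each of the 6 arrays carried RNA pooled from 3 replicate cultures of a single cell line, so an array was 1 sample and no control group was replicated. The sources name a control hairpin vector in one place and normal cells in another for the control arrays. If the controls carried no vector, silencing cannot be told apart from infection and sorting. P-values measure the spread between these arrays, which may be technical in part. In the silencing comparisons that spread was the disagreement between the 2 hairpins within a line, so it includes any real difference between hairpins. In the comparisons of lines and of hairpins it was the disagreement between arms or lines.

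In the mitochondrial inner membrane, complex I (NADH dehydrogenase) and complex II (succinate dehydrogenase) pass electrons to ubiquinone, complex III passes them to cytochrome c, and complex IV (cytochrome c oxidase) passes them to oxygen. Complexes I, III and IV pump protons, and complex V (ATP synthase) uses the gradient to make ATP. Most subunits are encoded in the nucleus, and the transcription factors NRF1, GABPA (an ETS factor) and YY1 are known regulators of many of these genes.

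ZFX itself was lower on every silenced array. Over its 4 probe sets the signal was 53.8% ± 13.6 (SD, n = 4 probe sets) of the control signal with hairpin 381 and 39.0% ± 14.2 with hairpin 1012 in Jurkat, and 37.8% ± 14.6 and 30.7% ± 8.38 in K562. The markers of the 2 lines mostly went with the labels: all 9 T cell markers were lower in K562, and 5 of 6 measured erythroid markers were higher there, TAL1 being lower. Of 8 measured markers of B cells, monocytes and fibroblasts, 2 exceeded the filter signal of 54.4 on each Jurkat array and 3 or 4 on each K562 array. CD79A and COL1A1 exceeded it on every array. COL1A2 measured 398 (control), 773 (381) and 245 (1012) in K562 and 19.0, 28.2 and 34.6 in Jurkat. The 2% trimmed mean of the signals was about 500 on every array. The 3′ to 5′ signal ratio of GAPDH was between 1.15 and 1.17 in Jurkat and between 1.22 and 1.36 in K562, and that of ACTB was between 8.43 and 9.99 in Jurkat and between 7.54 and 11.1 in K562. The median log2 signal of the poly-A spike-in controls was between 8.64 and 9.10 in Jurkat and between 7.70 and 8.31 in K562.

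Promoter sequences of the respiratory chain genes were read to show which letters known for the regulators they carry. RefSeq (GRCh38.p14) gave promoters for 69 of the 82 genes, 66 of them protein-coding, each with 250 bases before and 50 bases after the gene's start. On either strand, the NRF1 motif (GCGCA and GCGC with 1 free base between them) was found in 16 of the 66 promoters (24.2%), against 5.78% of all 35116 promoters of the same length. The ETS motif CCGGAAGT was found in 9 (13.6%, against 4.14% of all) and the YY1 motif AAGATGGC in 10 (15.2%, against 2.89% of all). The ZFX motif AGGCCTAG was found in 1 (1.52%, against 0.994% of all), that of NDUFV2, and its core AGGCCT, which the longer motif contains, in 6 (9.09%, against 10.9% of all). The median GC content was 61.2% in these promoters and 58.7% in all. Unlike the 66, the full set was not limited to protein-coding genes or to 1 promoter a gene, so the shares are not like for like. Of the promoters of genes lower in K562 than in Jurkat 4 of 7 carried the NRF1 motif, and of those of genes higher in K562 7 of 37 did. In the same order, the YY1 motif was in 3 of 7 and 4 of 37. The ETS motif was in 0 of 7 and 5 of 37, and the ZFX core in 1 of 7 and 5 of 37. With 7 promoters on one side these counts are small, and no difference was tested. A match is a description of letters and not a measured binding site.

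The 6 promoters printed here are examples that carry these motifs. They do not stand for the genes with the strongest differences below. The promoters of NDUFA5, NDUFV3, NDUFA1, COX6B1, NDUFB2 and ATP5F1E carried none of the motifs, and that of NDUFS1 carried an ETS motif. Printed are the 250 bases before the gene's start, 5′ to 3′ on the gene's strand, with motif letters in capitals. SDHA, the flavoprotein of complex II, lies at chr5:218070-218319 (+ strand) and carries the NRF1 motif 4 times, starting 166, 117, 68 and 19 bases before the start. SDHD, a membrane anchor of complex II, lies at chr11:112086623-112086872 (+ strand) with an NRF1 motif 110 bases and an ETS motif 78 bases before the start. COX5B, a subunit of complex IV, lies at chr2:97645812-97646061 (+ strand) with ETS motifs 37 and 5 bases before the start, the second running past the printed end. The promoters of NDUFA3, at chr19:54102605-54102854 (+ strand), and NDUFB4, at chr3:120596086-120596335 (+ strand), belong to accessory subunits of complex I that were lower in K562. The NRF1 motif starts 170 and 73 bases before the start of NDUFA3 and 159, 63 and 8 bases before that of NDUFB4, the last of these running past the printed end. NDUFV2, an iron-sulfur subunit of complex I, lies at chr18:9102449-9102698 (+ strand) and carries the ZFX motif on the opposite strand, 51 bases before the start.
SDHA: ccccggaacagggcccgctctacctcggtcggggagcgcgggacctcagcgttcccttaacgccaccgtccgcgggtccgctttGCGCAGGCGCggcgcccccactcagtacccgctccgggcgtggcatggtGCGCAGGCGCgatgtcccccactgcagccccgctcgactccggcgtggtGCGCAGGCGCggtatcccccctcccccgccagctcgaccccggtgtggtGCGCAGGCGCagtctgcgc
SDHD: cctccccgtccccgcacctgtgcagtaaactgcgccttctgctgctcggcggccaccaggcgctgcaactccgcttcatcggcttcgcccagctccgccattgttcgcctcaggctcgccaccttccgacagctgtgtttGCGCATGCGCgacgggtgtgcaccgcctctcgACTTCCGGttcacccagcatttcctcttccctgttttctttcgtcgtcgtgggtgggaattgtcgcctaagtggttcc
COX5B: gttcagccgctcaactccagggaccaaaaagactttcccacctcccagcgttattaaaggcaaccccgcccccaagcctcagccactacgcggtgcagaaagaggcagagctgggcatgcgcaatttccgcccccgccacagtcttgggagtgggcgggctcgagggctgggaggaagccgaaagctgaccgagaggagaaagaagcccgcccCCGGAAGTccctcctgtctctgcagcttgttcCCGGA
NDUFA3: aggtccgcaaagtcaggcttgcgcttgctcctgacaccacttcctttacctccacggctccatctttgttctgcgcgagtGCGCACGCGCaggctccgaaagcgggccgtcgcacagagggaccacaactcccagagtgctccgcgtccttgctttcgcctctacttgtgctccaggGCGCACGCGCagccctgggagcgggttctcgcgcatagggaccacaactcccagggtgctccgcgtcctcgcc
NDUFB4: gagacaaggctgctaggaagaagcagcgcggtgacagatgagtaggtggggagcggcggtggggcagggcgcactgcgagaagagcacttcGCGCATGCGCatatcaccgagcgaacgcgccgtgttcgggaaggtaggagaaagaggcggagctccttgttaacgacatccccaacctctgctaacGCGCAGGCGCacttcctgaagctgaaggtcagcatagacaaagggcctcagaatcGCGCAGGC
NDUFV2: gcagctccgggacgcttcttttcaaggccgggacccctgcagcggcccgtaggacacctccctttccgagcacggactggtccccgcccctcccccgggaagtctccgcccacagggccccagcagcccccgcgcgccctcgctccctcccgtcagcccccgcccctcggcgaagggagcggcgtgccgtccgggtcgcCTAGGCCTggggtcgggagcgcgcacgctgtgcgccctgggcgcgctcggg

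The lines were compared first, at matched arms, with 3 arrays on each side. Respiratory chain genes were more often higher than lower in K562: 44 of the 77 genes kept were higher and 8 were lower at an adjusted p under 0.05 (limma, Benjamini-Hochberg over all 11777 genes). One of the 44, COX7B2, passed the filter on low signals only through K562, and 43 were higher without it. Calls were frequent among all genes, at 65.0% of the genes tested, so the total of 52 members (67.5%) was near that background. The split by direction was not: 57.1% of members were higher against 30.3% of all genes, and 10.4% were lower against 34.7%. The median difference, K562 minus Jurkat, was 0.31 on the log2(signal + 17) scale for the members and -0.04 for all genes. Every K562 array exceeded every Jurkat array for 43 members (55.8%, against 31.0% of all genes), and the reverse held for 8 (10.4%, against 35.2%). In a population of cells, a larger share of expressing cells and more RNA per cell cannot be told apart.

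The split depended on scaling. It was 36 higher and 14 lower after quantile normalization (31.1% and 33.6% of all genes) and 37 higher and 13 lower after cyclic loess (30.3% and 34.6%), and the median fell to 0.22 and 0.23. None of the 52 called members changed sign under either. Members were bright genes, with 70 of the 77 above a mean signal of 1000, and the part of brightness, the 3′ to 5′ ratios and the spike-in signals in the difference between the lines was not tested. Without the intensity trend in the fit 32 members were higher and 1 was lower, and with the control arrays alone 20 and 1. That last comparison has 1 array a line, with the spread taken from the silenced arrays.

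**Figure D1:**
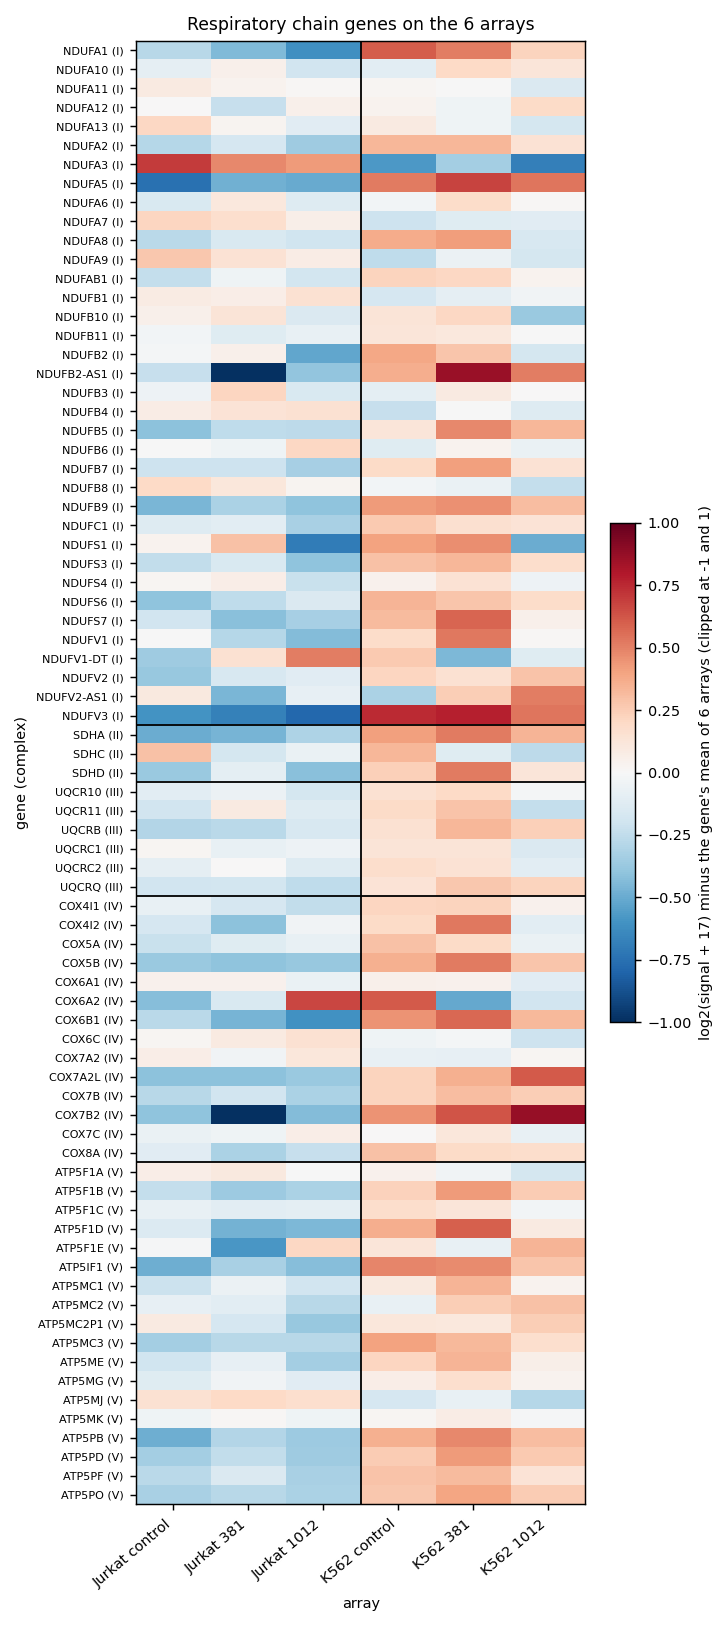
Level of the 77 respiratory chain genes kept (rows, grouped by complex) on the 6 arrays (columns), as log2(signal + 17) minus the gene's mean over the arrays, with red above and blue below that mean. The 3 K562 arrays are mostly red and the 3 Jurkat arrays mostly blue, with NDUFA3 the reverse.

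In complex I, 17 of 36 genes were higher in K562 (47.2%, against 30.3% of all genes) and 6 were lower (16.7%, against 34.7%). The same shares of all genes apply to the other complexes. The 36 include the long non-coding RNAs NDUFB2-AS1, NDUFV1-DT and NDUFV2-AS1, and NDUFB2-AS1 is one of the 17. The strongest evidence was for NDUFA5, an accessory subunit of the matrix arm. Its signal was 7044 (control), 8436 (381) and 8325 (1012) in Jurkat and 16951, 18856 and 17092 in K562, with no overlap. The difference was 1.15 ± 0.07 (SE) on the log2 scale, with an adjusted p of 6.79e-07. NDUFV3, an accessory subunit of the NADH-oxidising module, measured 1643, 1556 and 1440 in Jurkat and 4186, 4286 and 3629 in K562. It had the largest difference of the bright members, 1.37 ± 0.11 (adjusted p = 2.79e-06), and its second kept probe set was also higher in K562. NDUFA1, a membrane subunit encoded on the X chromosome, was higher by 0.89 ± 0.07 (adjusted p = 2.62e-06), at 8472 ± 979 (SD, n = 3) in Jurkat and 15717 ± 2093 in K562.

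NDUFA3, a small accessory subunit of the membrane arm, went the other way. Its signal was 8268, 7101 and 6841 in Jurkat and 3413, 4024 and 3160 in K562 in the order control, 381, 1012. No array of one line reached into the range of the other, and the difference was -1.07 ± 0.11 (adjusted p = 1.52e-05). The other complex I genes called lower in K562, NDUFA9, NDUFA7, NDUFB4, NDUFB8 and NDUFB1, lay between -0.33 and -0.20. NDUFB4 measured 17630, 18385 and 18547 in Jurkat and 14277, 16704 and 15292 in K562. Its difference of -0.24 ± 0.06 (adjusted p = 0.00813) was larger than the spread between arms. NDUFA7, an accessory subunit of the matrix arm, fell by 0.29 ± 0.09 in K562 relative to Jurkat (adjusted p = 0.0162), a call that was lost without the 381 array of either line (adjusted p = 0.0589 without that of Jurkat and 0.0569 without that of K562).

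NDUFV1, a core subunit of complex I that binds NADH and FMN, measured 3151, 2598 and 2341 in Jurkat and 3598, 4571 and 3189 in K562. The lowest K562 array was just above the highest Jurkat array. The difference was 0.48 ± 0.13 (adjusted p = 0.0087), and without the 381 array of either line it was 0.32 and not called (adjusted p = 0.0793 without that of Jurkat and 0.091 without that of K562). NDUFS1, the large iron-sulfur subunit, differed by 0.25 ± 0.10 and did not pass (adjusted p = 0.0564), with overlapping lines. Of its 4 other kept probe sets only 1 had the same sign, and the lowest differed by -0.75. The core subunits NDUFS3, NDUFS7 and NDUFV2 were higher in K562 by 0.53 ± 0.08, 0.63 ± 0.13 and 0.43 ± 0.08. For NDUFS7 and NDUFA2, the other kept probe set had the opposite sign.

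In complex II, 2 of 3 genes were higher in K562. SDHA measured 2023, 2069 and 2301 in Jurkat and 3806, 4107 and 3623 in K562. The lines did not overlap, and the difference was 0.85 ± 0.11 (adjusted p = 0.000104). SDHA has pseudogene copies, and its probe set carries the suffix for possible cross-hybridisation, so its reading is uncertain. SDHD was higher by 0.59 ± 0.08 (adjusted p = 9.83e-05), at 5881, 7140 and 5716 against 9009, 10930 and 8304. SDHC, the other membrane anchor, differed by -0.04 ± 0.10 (adjusted p = 0.774).

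Complex III had 3 of 6 genes higher in K562 and none lower. UQCRB, a small accessory subunit, measured 16871, 17127 and 18464 in Jurkat and 22984, 26005 and 24364 in K562. The difference was 0.48 ± 0.06 (adjusted p = 8.85e-05), and its 2 bright probe sets had no overlap between lines. Averaged over all its kept probe sets, which include a dim one, the value was -0.14. UQCRQ, another accessory subunit, was higher by 0.42 ± 0.06 (adjusted p = 0.000286). UQCR10 was higher by 0.22 ± 0.06 (adjusted p = 0.0094), but by 0.08 and not called after either normalization, by 0.20 and not called without the K562 381 array, and by -0.18 as a mean of its probe sets. UQCRC1, a core subunit, differed by 0.07 ± 0.12 (adjusted p = 0.623).

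Complex IV had 8 of 14 genes higher, or 7 without COX7B2, and 1 lower. COX6B1, a subunit facing the intermembrane space, measured 8877, 7781 and 7044 in Jurkat and 14637, 15960 and 13445 in K562. All 3 K562 arrays were above the Jurkat range, and the difference was 0.90 ± 0.08 (adjusted p = 7.62e-06). COX5B measured 10104, 9891 and 10045 against 16755, 18772 and 15882, a difference of 0.77 ± 0.07 (adjusted p = 1.17e-05), and its other 3 kept probe sets had the same sign. COX7B, a small membrane subunit, was higher by 0.52 ± 0.06 (adjusted p = 3.12e-05), but its dim second probe set was lower in K562 and the mean of both gave -0.07.

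COX4I1 and COX5A, both known sites of regulation of the oxidase, were higher by 0.33 ± 0.06 (adjusted p = 0.000907) and 0.28 ± 0.09 (adjusted p = 0.0182). COX5A was not called after quantile or cyclic loess normalization, with values of 0.15 and 0.12. COX6C was the only complex IV gene called lower, by -0.18 ± 0.07 (adjusted p = 0.0462). Its call was lost without the 1012 array of either line, where the value was -0.08 (adjusted p = 0.329 without that of Jurkat and 0.311 without that of K562), and in several other settings.

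Tissue isoforms of complex IV were dim. COX7B2, the testis isoform of COX7B, measured between 16.4 and 37.4 in Jurkat and between 81.1 and 115 in K562. All its Jurkat signals lay under the filter of 54.4, so it was kept only through K562, and its difference of 1.29 is given as a description that depends on the pseudocount. COX4I2, the isoform linked to lung and hypoxia, and COX6A2, the muscle isoform, differed by 0.41 ± 0.29 and -0.06 ± 0.39 and were not called. Below the filter were COX7A1 of muscle, COX6B2 and COX8C of testis, the pseudogene COX6A1P1, and ATP5MF of complex V. Their signals were between 0.840 and 66.0 on every array.

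Of the 5 complexes, complex V had the highest share of genes called higher, 14 of 18 (77.8%), with 1 lower. The 18 include the pseudogene ATP5MC2P1, which was not called. The peripheral stalk genes were all higher in K562: ATP5PB by 0.76 ± 0.06, ATP5PD by 0.63 ± 0.06, ATP5PO by 0.62 ± 0.06 and ATP5PF by 0.50 ± 0.06. ATP5PB measured 16107, 18368 and 17473 in Jurkat and 28902, 31411 and 27954 in K562, without overlap (adjusted p = 2.36e-06). The catalytic head was split. ATP5F1B, the beta subunit, was higher by 0.61 ± 0.08 (adjusted p = 7.9e-05), while ATP5F1A, the alpha subunit, differed by -0.11 ± 0.06 and was not called (adjusted p = 0.107). After quantile and cyclic loess normalization ATP5F1A was called lower, by -0.23 and -0.28.

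ATP5IF1, the inhibitor of ATP hydrolysis by complex V, measured 4661, 5203 and 4865 in Jurkat and 9174, 9050 and 7941 in K562. It was higher by 0.83 ± 0.09 (adjusted p = 2.41e-05). The genes ATP5MC1, ATP5MC2 and ATP5MC3, which encode the same mature ring subunit, were higher by 0.31 ± 0.09, 0.31 ± 0.10 and 0.60 ± 0.07. ATP5MJ, a small membrane subunit, was lower at 21924, 22628 and 22157 against 17573, 18718 and 16144, a difference of -0.35 ± 0.06 (adjusted p = 0.000733).

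**Figure D2:**
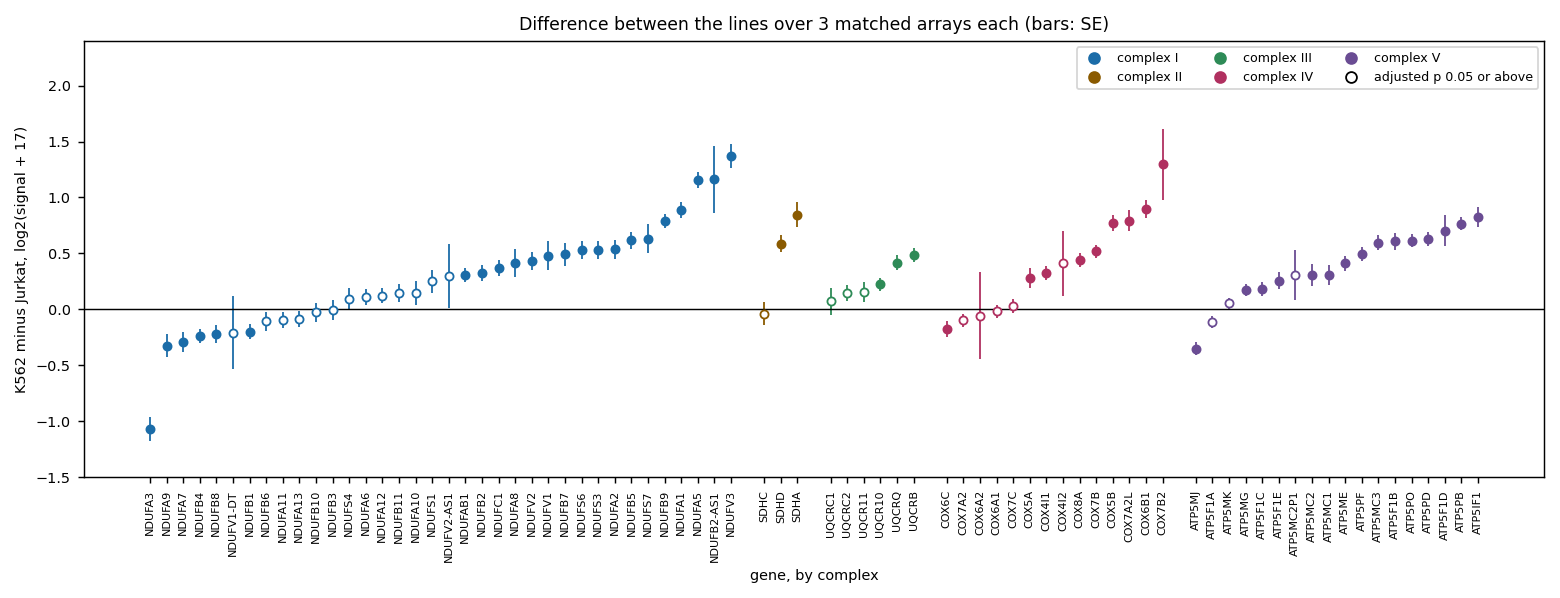
Difference K562 minus Jurkat (log2(signal + 17)) for each gene kept, by complex, with bars for 1 SE over 3 matched arrays a line and filled points for an adjusted p under 0.05. Points lie above 0 for 58 of 77 genes, and NDUFA3 is the lowest at -1.07.

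Of the 52 called members, 28 had another kept probe set. For 21 of these every other probe set lay on the same side, and for 7 (NDUFA2, NDUFB2, NDUFB8, NDUFS7, UQCR10, UQCRB and COX7B) at least 1 did not.

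Genes around the chain were counted in the same comparison. For every list, the shares of all genes to set beside the counts are 30.3% higher, 34.7% lower and 65.0% in either direction. The electron carriers and entry enzymes were 11 higher and 1 lower of 18 in K562. Among them ETFA, which feeds electrons from fatty acid oxidation, was higher by 1.27 ± 0.08 (adjusted p = 4.94e-07). GPD2, the mitochondrial glycerol-3-phosphate dehydrogenase, measured 5.76 to 16.6 in Jurkat and 1028 to 2007 in K562, so it passed the filter only through K562. It is one of the 11, and its direction was given by the way it passed the filter. COQ6, an enzyme of ubiquinone synthesis, was the one lower, by -1.17 ± 0.19. In the tricarboxylic acid cycle 6 of 11 genes measured were higher and 2 lower, led by MDH2 (0.86 ± 0.06) and SUCLA2 (-0.80 ± 0.09).

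Assembly factors were more evenly divided. For complex I 6 were higher and 3 lower of 16, with NDUFAF4 at 1.01 ± 0.09 and NDUFAF3 at -1.08 ± 0.13. For complex IV 8 were higher and 9 lower of 23, with COX20 at 1.85 ± 0.15 and COX16 at -1.28 ± 0.08. Complexes II and III had 2 higher and 1 lower of 4, and 3 higher and 1 lower of 6, led by SDHAF3 (1.56 ± 0.14), SDHAF4 (-1.87 ± 0.20), UQCC3 (1.69 ± 0.14) and TTC19 (-0.85 ± 0.13). For complex V only ATPAF1 of 4 was called, at -1.73 ± 0.11.

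Of the regulators of mitochondrial biogenesis 5 were higher and 4 lower of 13, with TFB2M, a mitochondrial transcription factor, at 1.45 ± 0.09 and YY1 at -0.51 ± 0.07. Glycolysis genes were 8 higher and 6 lower of 20, with the glucose transporter SLC2A3 at 5.02 ± 0.16 and the enolase ENO2 at -2.35 ± 0.19. No difference between these lists and the respiratory chain genes was tested.

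**Figure D3:**
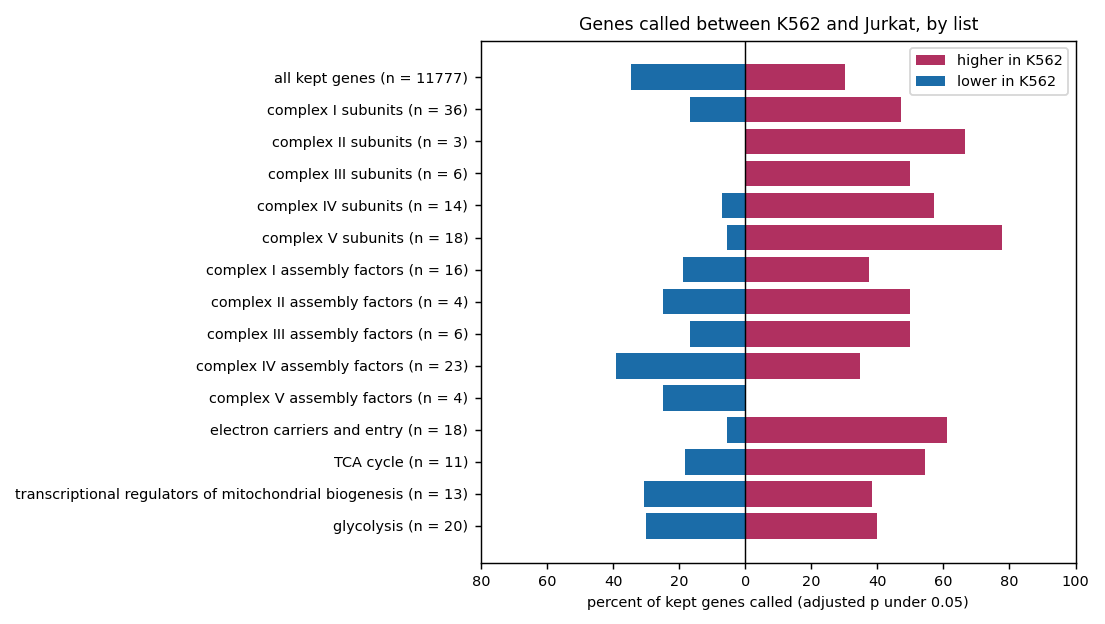
Percent of the genes kept in each list (rows, n in parentheses) called higher (red, to the right) or lower (blue, to the left) in K562 than in Jurkat at an adjusted p under 0.05. The rows named subunits hold every kept member of a complex, with the long non-coding RNAs, the pseudogene ATP5MC2P1 and the inhibitor gene ATP5IF1 included. The complex V row reaches 77.8% higher, against 30.3% higher and 34.7% lower for all kept genes.

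The effect of ZFX silencing on these genes was asked within each line. No member passed an adjusted p under 0.05 (limma) in Jurkat, in K562, in their average or in the difference of the effect between lines, and neither did any of the 11777 genes (0.0% called in each). At an unadjusted p under 0.05 there were 0, 2, 1 and 2 of 77 members, against 3.5%, 4.9%, 6.11% and 2.48% of all genes. The median silencing effect over the members was -0.02 in Jurkat and 0.00 in K562, against -0.02 for all genes in both. With 1 control array a line, these values do not show that the genes were unaffected.

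Against the control of its line, the median member differed by 0.03 with hairpin 381 and -0.04 with hairpin 1012 in Jurkat, and by 0.08 and -0.12 in K562. The median size of the difference was between 0.10 and 0.16, against 0.21 to 0.26 for all genes. Of the members 68 were brighter than 3 in 4 kept genes, and the part of brightness in these sizes was not tested. On all 4 silenced arrays, 5 members were above control (NDUFA5, NDUFA6, NDUFB4, NDUFB5 and UQCRB; 6.49%, against 12.7% of all genes). Below control on all 4 were 8 (NDUFA1, NDUFA11, NDUFA13, NDUFB8, NDUFB11, SDHC, COX8A and ATP5F1C; 10.4%, against 15.2%). With both hairpins 7 members (9.09%, against 7.73%) were above control in K562 and below it in Jurkat, and 7 (against 7.43%) the reverse.

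**Figure D4:**
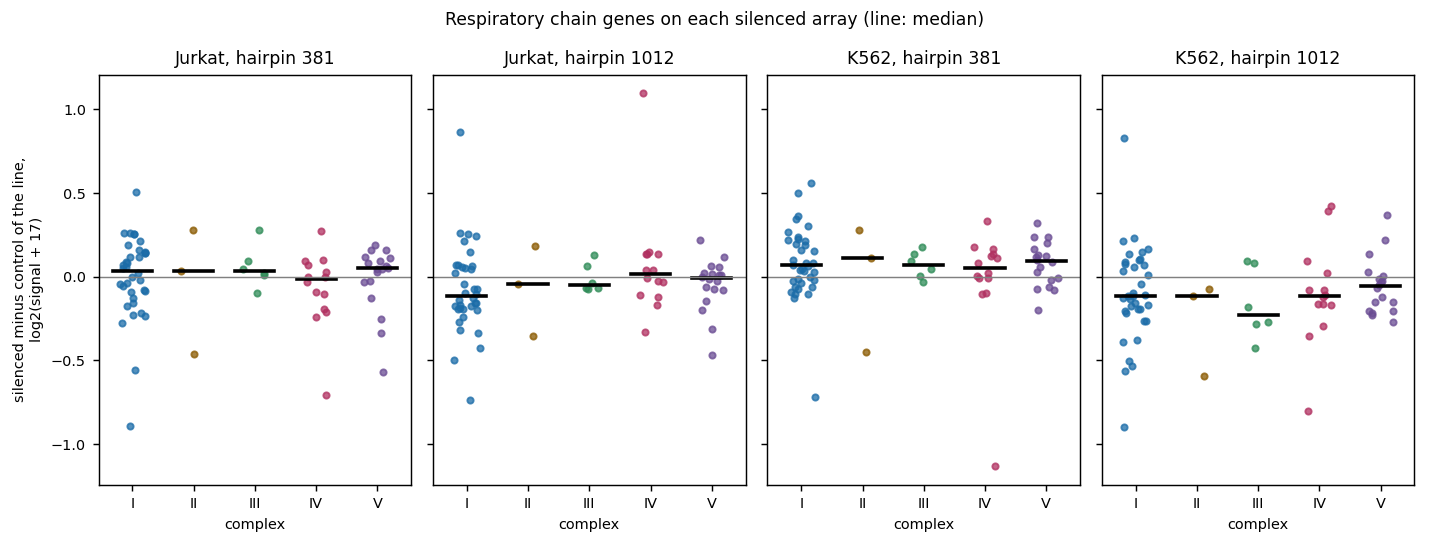
Silenced minus control of the same line (log2(signal + 17)) for each gene kept, by complex, 1 panel per silenced array, with the black line at the median. The medians of all members are 0.03, -0.04, 0.08 and -0.12 from left to right.

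SDHC, which anchors complex II in the membrane, had the smallest p of the members in each line and in their average. Its signal was 4457 on the Jurkat control against 3229 with hairpin 381 and 3481 with hairpin 1012, and 4575 on the K562 control against 3347 and 3031. The control was the highest array in both lines. The average effect was -0.46 ± 0.14, with an unadjusted p of 0.0116 and an adjusted p of 0.776. Of the 2 next brightest SDHC probe sets, the signal of one was below control on all 4 silenced arrays and that of the other on 3 of 4. Of the 4 dimmer ones, 1 was below control on 3 of 4 silenced arrays and 3 on 2 of 4, so the probe sets did not all show the same order.

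Other small differences had no call either. NDUFA1 averaged -0.24 ± 0.12, NDUFA13 -0.22 ± 0.11 and NDUFB5 0.22 ± 0.11 (adjusted p = 0.809 for each). ATP5MC2 measured 12480 (control), 12239 and 10890 in Jurkat and 12520, 15630 and 16202 in K562. Its effect was 0.35 ± 0.14 in K562 (adjusted p = 0.974), and the difference of its effect between the lines was 0.46 ± 0.20 (adjusted p = 1.00). COX6A2, near the filter at 39.8 to 112, had a difference of -1.65 ± 0.70 (adjusted p = 1.00). NDUFV2, whose promoter holds the ZFX motif, measured 7802, 9043 and 9363 in Jurkat and 11746, 11273 and 12328 in K562.

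The hairpins were compared with each other over both lines, with 2 arrays each. Hairpin 1012 gave lower signals than 381 in both lines for 45 of 77 members (58.4%, against 33.5% of all genes). It gave higher signals in both for 10 (13.0%, against 27.2%). In the fit over both lines 62 of 77 were lower. The median difference, 1012 minus 381, was -0.12, against -0.03 for all genes. It was -0.07 after quantile or cyclic loess normalization, where 58 and 61 of 77 were lower. For the counts from the fit, the share of all genes was not computed. Left out in turn, the K562 381 and K562 1012 arrays moved the median of -0.12 to -0.06 each. In Jurkat all 4 ZFX probe sets were lower with hairpin 1012 than with 381. In K562 2 of 4 were lower and 2 higher, among them the brightest, at 289 with 1012 and 236 with 381. The part of ZFX level in the difference between hairpins was not tested.

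Called between the hairpins were 3 of 77 members (0.909% of all genes were called), 1 higher with 1012 (0.569% of all genes) and 2 lower (0.34%). NDUFS1 measured 3155 (control), 3769 (381) and 1886 (1012) in Jurkat and 4073, 4263 and 2179 in K562. The 1012 array was the lowest in each line, by -0.98 ± 0.13 relative to 381 (adjusted p = 0.00998). The signal was also lower with 1012 than with 381 on the other 4 kept probe sets in both lines. Leaving out any silenced array left it called, with an adjusted p between 0.0136 and 0.0356.

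NDUFB2, an accessory subunit of the membrane arm, measured 11180, 11750 and 7909 in Jurkat and 14818, 13772 and 10037 in K562. It was lower with 1012 by -0.51 ± 0.09 (adjusted p = 0.0316), and its second bright probe set showed the same order of 1012 and 381. Its call was lost without Jurkat 381 (adjusted p = 0.151), Jurkat 1012 (0.0559) or K562 1012 (0.0832). ATP5F1E, the epsilon subunit of complex V, measured 25176, 16940 and 29280 in Jurkat and 27608, 24070 and 32099 in K562. It was the only member called higher with 1012, by 0.60 ± 0.09 (adjusted p = 0.0243), with the 381 array the lowest in each line and the call lost without Jurkat 1012 (adjusted p = 0.0559). Its dim second probe set did not show this.

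**Figure D5:**
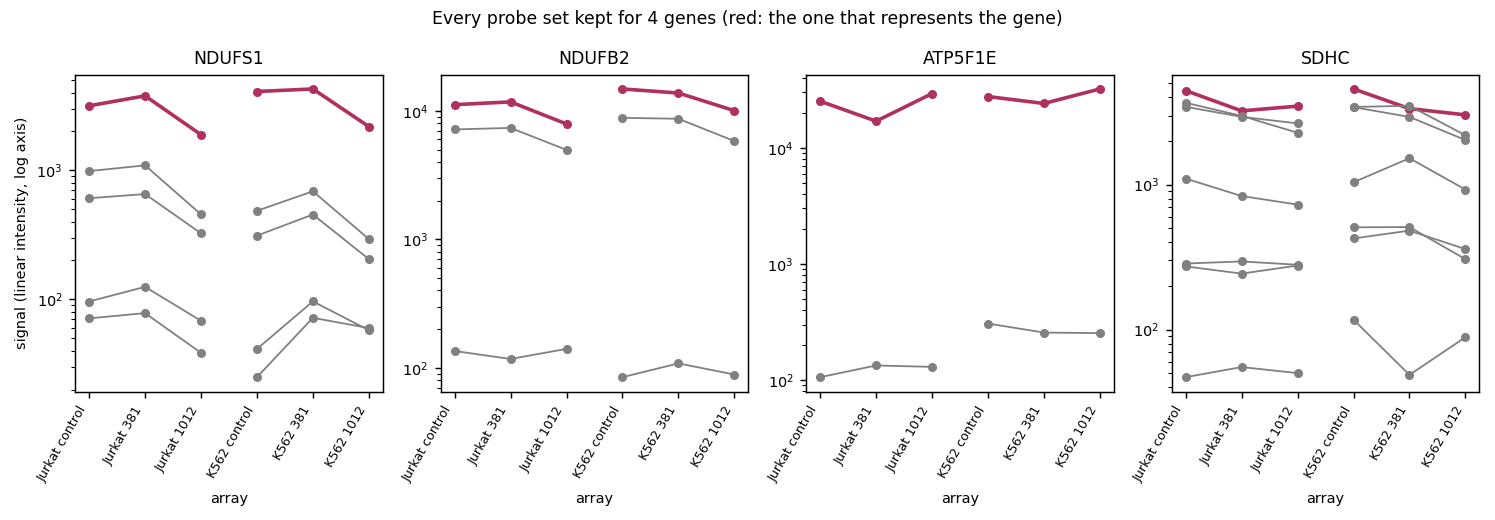
Signal (log axis) of every kept probe set of NDUFS1, NDUFB2, ATP5F1E and SDHC on the 6 arrays, with the probe set that represents the gene in red and the others in grey. Red NDUFS1 falls to 1886 and 2179 with hairpin 1012, and red SDHC is highest on the control array of each line, at 4457 and 4575.

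Each hairpin was also set against the control over both lines, a comparison added after the data were seen, and the comparisons share the control arrays. With hairpin 1012, 2 of 77 members were called (0.425% of all genes), NDUFS1 at -0.82 ± 0.13 (adjusted p = 0.0391) and NDUFB2 at -0.53 ± 0.09 (adjusted p = 0.0445), and 0 without the K562 1012 array. With hairpin 381, 0 were called by limma (0.263% of all genes), with 6 at an unadjusted p under 0.05 (10.6% of all genes). Without the K562 381 array 1 was called.

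The calls between hairpins rest on the intensity trend and on the probe set chosen: without the trend 0 members were called, and 0 with the mean of a gene's probe sets. Among the surrounding lists the only call was SDHAF3, an assembly factor of complex II, higher with 1012 by 0.99 ± 0.17 (adjusted p = 0.0409). It measured 1787 (control), 860 (381) and 2181 (1012) in Jurkat and 4753, 3428 and 5389 in K562, so the 381 array was the lowest in each line. In the silencing comparisons none of the listed genes was called.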

How the data were processed

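The series used 6 Affymetrix arrays of 1 colour. The authors deposited a linear intensity (signal) for each of 54675 probe sets. Per the submitters' processing notes these came from MAS5, its options not given in the sources used here. No detection calls were used. Names came from the platform annotation, and the 41091 probe sets with 1 symbol were used. From the deposited intensities log2(signal + 17) was computed, which understates the change of dim genes. Each gene took its probe set of highest mean signal, and 11777 of 19775 genes above the median probe set (signal 54.4) were kept.

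Tests used limma 3.58.1 in R 4.3.3 with an intensity trend, two-sided, adjusted by Benjamini-Hochberg over all kept genes, with a threshold of 0.05. Silencing was fitted with 4 groups (control and silenced in each line), the control arrays being assumed to vary like the silenced ones. Lines and hairpins were fitted with arm (control, 381, 1012) and line as terms, and each fit had 2 residual degrees of freedom. The fits were tested on simulated data of 11777 genes, of which 200 were changed. The line comparison recovered 83.6% of 2-fold and 99.8% of 4-fold changes with 8.87% of calls false, and the average silencing comparison 72.0% and 97.2% with 8.65% false. The simulated spread was independent between arrays and equal on control and silenced arrays, which the real arrays need not follow. These shares therefore do not show what the real comparisons could find. In the real average silencing comparison 0 of 11777 genes were called, and ZFX itself did not pass. The number of arrays limits the precision.

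The members and gene lists were chosen with earlier results of these data known. Genes were named by rule: in each complex the 3 called genes of smallest p in each direction between the lines, the 5 of smallest p in each direction in other comparisons, central subunits, tissue isoforms and genes below the filter, and leading genes of each list. Other genes named were chosen after their values were seen. Gene lists covered assembly factors of each complex, electron carriers and entry enzymes, the tricarboxylic acid cycle, regulators, glycolysis and cell type markers. Differences of the hairpins (1012 minus 381) correlated between the lines with r = 0.22 across 11777 genes and 0.55 across the 77 members, genes that are not independent replicates. As the number of an array stands for its hairpin, this was the only pairing checked. Alternatives changed the pseudocount (4 or 68), filter, normalization, trend, probe set rule, block and each silenced array.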

Additional observations from a re-analysis of the deposited data

How the results depend on the processing

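Depth cannot be read from arrays, and 7 of the 77 genes kept had a mean signal under 1000. Between the lines 52 members were called, 33 without the intensity trend, 21 with the control arrays alone (1 array a line, the spread taken from the silenced arrays) and 41 to 49 when a silenced array was left out. The median over members was 0.31, and it was 0.22 after quantile normalization, 0.23 after cyclic loess, 0.37 with the control arrays alone and 0.29 to 0.34 with an array left out. With the hairpin as a replicate block the count of called members stayed 0 in the silencing contrasts, and with no replicate block the line comparison called 40 members (37 higher, 3 lower). The hairpin contrast could not be given in the 4-group fit. Between hairpins 3 members were called, 1 with no filter, 0 with no intensity trend, 0 with the mean of probe sets and 2 to 4 with an array left out. Hairpin 1012 against control gave 2 calls, 0 with a pseudocount of 4, 1 with no filter, 1 after cyclic loess, 0 with no trend, 0 with the mean of probe sets and 0 to 2 with an array left out. Hairpin 381 against control gave 0, and 0 to 1 with an array left out. The median difference of the silencing effect between lines was 0.00, and -0.0801 to 0.0763 with an array left out.

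Directions turned for few genes. With the mean of probe sets the line difference was -0.0707 for COX7B, -0.0567 for NDUFA2, -0.14 for UQCRB, -0.185 for UQCR10 and -0.38 for NDUFS1, the silencing effect in K562 was -0.14 for NDUFB4, and the average effect was -0.0284 for UQCRB. COX6A2, at -0.06 between the lines, gave 0.0933 to 0.343 with an array left out and 1.04 with the control arrays alone, and its hairpin difference of 0.57 ranged from -0.0253 (without Jurkat 1012) to 1.18 (without K562 1012). The cause was not tested. Of the other values for the genes named by rule, 982 kept their direction and side of the threshold, 50 lost and 3 gained a call. These values include the silencing comparisons, where no member was called and so none could lose a call. The 982 is therefore no measure of how firm the calls are.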

Other observations

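Some subunits were seen only on probe sets with several symbols, and these stay outside the counts. The probe set of UQCRH and UQCRHL, a hinge protein of complex III and its near copy, measured 18518, 17814 and 17612 in Jurkat and 27265, 28686 and 26220 in K562 in the order control, 381, 1012, a difference of 0.61 in log2(signal + 17). The bright probe set of NDUFC2 and its read-through transcript measured 7912, 7594 and 8533 against 17848, 16516 and 16713, a difference of 1.09, while a dimmer one differed by -0.21. For ATP5MF, whose 1-symbol probe set lay below the filter, a probe set shared with ARMC2-AS1 measured 8914, 9333 and 7455 against 15531, 16218 and 13311, a difference of 0.81. A probe set shared by SDHA and 3 of its pseudogenes differed by 1.39, and the 3 probe sets that name NDUFS8 with microRNAs by 0.29, 0.10 and 0.10. None of these was tested.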
